A study of Mus musculus with 14 samples.

Results

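The genes described here encode the main plasma membrane and lysosomal amino acid carriers of the mouse. They are the protein-coding genes of the solute carrier families Slc1, Slc3, Slc6, Slc7, Slc36 and Slc38, taken by gene symbol and without the imprinted Slc38a4. The rule found 56 genes among the 37991 genes of the files, of which 18 belong to Slc6, 15 to Slc7, 10 to Slc38, 7 to Slc1, 4 to Slc36 and 2 to Slc3. The rule used symbols only and no measured value, but the members were chosen with earlier results of these data known. RNA of C57BL/6 mouse embryonic stem cells was sequenced in all 14 libraries. The cells carried a pair of fluorescent reporters, mCherry at the mir-290 locus and eGFP at the mir-302 locus, so every group below, controls included, shares this reporter line.

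Cells of the 5-media experiment were plated at low density and kept for 5 days in 1 of 5 media, with 2 libraries per medium. These were serum with the cytokine LIF (FBS/LIF), the same with 500 µM vitamin C (VitC/LIF), with the inhibitor mixture 2i (2i/LIF), or with L-proline at a dose the labels do not state (L-Pro/LIF), and the serum-free N2B27 medium with 20 ng/ml Activin A and 12 ng/ml bFGF (F/A). As listed, F/A differs from the others in serum, LIF and base medium as well as in Activin A and bFGF, and these cannot be told apart. A second experiment holds 4 single libraries of cells positive for both reporters. The starting population was kept in serum, LIF and 100 µM vitamin C (day 0), and the others were treated with 1 mM L-proline in serum and LIF for 5 days (L-Pro day 5) or with bFGF and Activin A (20 ng/ml) for 3 or 5 days (F/A day 3 and F/A day 5). Whether the treated libraries kept vitamin C is not given in the sources used here, so their differences from day 0 may hold a change in vitamin C as well. RNA was extracted with an RNeasy kit in the 5-media experiment and with Trizol in the second, so the experiments were never pooled. No label states that a medium's 2 libraries are from separate cultures, so the p-values measure the spread between these libraries, which may be technical.

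Amino acids cross membranes on carriers that are named by the substrates they take and the ions they move with. Carriers of the Slc7 family either work alone on cationic amino acids or form light chains that reach the membrane only when bound to a heavy chain of the Slc3 family. Slc38 and most Slc6 carriers use the sodium gradient, Slc1 carriers move glutamate or exchange small neutral amino acids, and some Slc36 carriers move small amino acids together with protons. In mouse embryonic stem cells L-proline enters largely through the sodium-coupled carrier Slc38a2, and added L-proline is known to shift these cells toward a later, epiblast-like state. When amino acids run short, the kinase GCN2 raises the transcription factor ATF4, which binds composite sites in the promoters of several carrier genes together with a C/EBP protein.

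Promoter sequence was used to show which of these genes hold the letters of such a site near their start. The RefSeq promoter table of the build GRCm38.p6 gives 300 bases per annotated start, from 250 bases before it to 50 after it, and 39 of the 56 genes matched it by symbol. The motif TGATGNAAN, searched on both strands, was present in the window of 4 of these 39 genes, and in 1215 of all 27025 genes of the table (4.50%). The genes were Slc7a11, Slc1a4, Slc7a7 and Slc6a21, and the last had too few reads to be tested. The stretches of the 3 tested genes are shown because their levels are followed below, each read 5′ to 3′ on the strand of the gene, with the motif in capitals.
Slc7a11: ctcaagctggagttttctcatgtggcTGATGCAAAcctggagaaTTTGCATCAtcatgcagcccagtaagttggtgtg
Slc1a4: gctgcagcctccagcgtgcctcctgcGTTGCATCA
Slc7a7, nearer motif: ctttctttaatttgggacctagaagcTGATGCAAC
Slc7a7, farther motif: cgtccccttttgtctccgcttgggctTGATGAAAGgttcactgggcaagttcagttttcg
The Slc7a11 stretch is chr3:50443628-50443705 on the minus strand, and its 2 motifs face opposite ways, the first beginning 66 and the second 48 bases before the start. For Slc1a4 the stretch is chr11:20332710-20332744 on the minus strand, and its motif runs across the annotated start, on the strand opposite to the gene. The Slc7a7 stretches are chr14:54417937-54417971 and chr14:54418052-54418111 on the minus strand, with the motif on the strand of the gene in both. A match of letters is a description of the sequence and was not measured as binding.

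Expression in the 5-media experiment was tested on read counts rebuilt from the deposited estimates. The libraries held 17778399 to 26354444 mapped fragments, except F/A replicate 1 with 6937945, the shallowest by far. Of the 56 carriers, 37 passed the filter on low counts and were tested, and 19 did not, with at most 17 estimated reads in any library. The filter keeps a gene that is high in 1 medium only, so the 37 are the carriers measurable here and not all of the family. Levels between media are given as CPM, counts scaled to library size, after TMM scaling, and levels between genes as FPKM, which divides by transcript length. Calls are adjusted p-values under 0.05 from edgeR's quasi-likelihood test in 1 model of all 10 libraries, with Benjamini-Hochberg adjustment over 16033 genes. A call is given as lost where its adjusted p was no longer under 0.05 with 1 library left out or under another test, filter or scaling. In bulk RNA, fewer cells of a type and less RNA per cell cannot be told apart.

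The stem cell label was checked against markers. All 8 markers of pluripotent stem cells were detected in every medium, with a summed level of 3596 to 3726 CPM in FBS/LIF and 1764 to 2148 CPM in F/A, the lowest medium. Over FBS/LIF, 5 were lower and 0 higher in L-Pro/LIF (62.5%, against 24.0% of all genes called). In F/A 6 were lower and 1 higher (87.5%, against 46.4%), and in 2i/LIF 3 and 1 (50%, against 30.3%). Their median log2 fold change was -0.64 in L-Pro/LIF, -1.27 in F/A and -0.30 in 2i/LIF. Fibroblast markers, which would also mark feeder cells, summed to 14.2 to 14.8 CPM in FBS/LIF, 13.8 to 15.5 in VitC/LIF, 16.0 to 16.6 in 2i/LIF, 75.3 to 84.8 in F/A and 66.9 to 75.3 in L-Pro/LIF. Against FBS/LIF, 7 of 8 tested fibroblast markers were higher in L-Pro/LIF (13.7% of all genes were) and 6 were in F/A (24.4%). In 2i/LIF 1 was higher and 3 lower (50%, against 30.3% of all genes). The median there was a log2 fold change of -2.06, which the sum does not show. Of the 10 listed, Lum and Postn were at 0 in FBS/LIF, and Col3a1, Lum and Postn were in 2i/LIF. Endoderm markers summed to 11.3 to 22.5 CPM in FBS/LIF and 77.8 to 115 in F/A, where 7 of 10 tested were higher, against 24.4% of all genes. Neural markers summed to 172 to 183 CPM in FBS/LIF, 91.2 to 95.1 in 2i/LIF, 352 to 503 in F/A and 331 to 361 in L-Pro/LIF, but this sum followed Nes, with medium means of 75.0, 17.7, 389 and 293 CPM in the same order. Of the 4 tested neural markers, Nes was called higher and Tubb3 lower in both L-Pro/LIF and F/A over FBS/LIF, Olig2 was also lower in F/A, and the list's median log2 fold change was -0.82 in F/A and -0.32 in L-Pro/LIF. Trophectoderm markers summed to 65.3 to 76.5 CPM in FBS/LIF, 37.2 to 38.1 in 2i/LIF, 14.2 to 18.4 in F/A and 32.5 to 33.2 in L-Pro/LIF, a sum that followed Tfap2c, which fell in all 3 over FBS/LIF. Cdx2 was called higher in all 3, Krt7 was higher in L-Pro/LIF and lower in the other two, and the median of the 5 tested was 0.62 in F/A and 0.22 in L-Pro/LIF. The 4 markers of brush border epithelia of kidney and gut, where many of these carriers are known, also split. Lrp2, at 268 CPM in FBS/LIF, 17.1 in 2i/LIF, 937 in F/A and 718 in L-Pro/LIF as medium means, was higher in L-Pro/LIF and F/A and lower in 2i/LIF, Slc5a1 was called the opposite way in each, and Vil1 was not called. These lists move with the L-Pro/LIF, 2i/LIF and F/A results below, and their part in them was not tested.

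The carriers most abundant per length were the cationic carrier Slc7a3, at a mean of 105 FPKM over the 5 media and a range of 70.6 to 144 over the 10 libraries, and the sodium-coupled Slc38a2, at 57.9 FPKM with a range of 29.2 to 87.2. Slc38a6 ranked between them at 85.5 FPKM, but only 35.5% to 37.2% of its estimated reads were unique to it, so its level rests on how shared reads were divided. The heavy chain Slc3a2 followed at 41.2 FPKM, then the leucine carrier Slc7a5 at 31.3, Slc38a10 at 31.0 and Slc7a7 at 27.6. The neutral exchanger Slc1a5 stood at 21.4 FPKM, the taurine carrier Slc6a6 at 21.3 and the creatine carrier Slc6a8 at 13.6. These 10 genes made up the top of the order, and the Slc36 genes together held under 1% of the summed FPKM of all 56 in every library. The summed FPKM of the families without Slc38a6 was 446 and 469.7 in FBS/LIF, 410.0 and 391 in VitC/LIF, 334 and 324 in 2i/LIF, 585 and 494 in F/A and 448 and 439 in L-Pro/LIF. It was lowest in both 2i/LIF libraries, and the ranges of the other media lay above them.

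**Figure D1:**
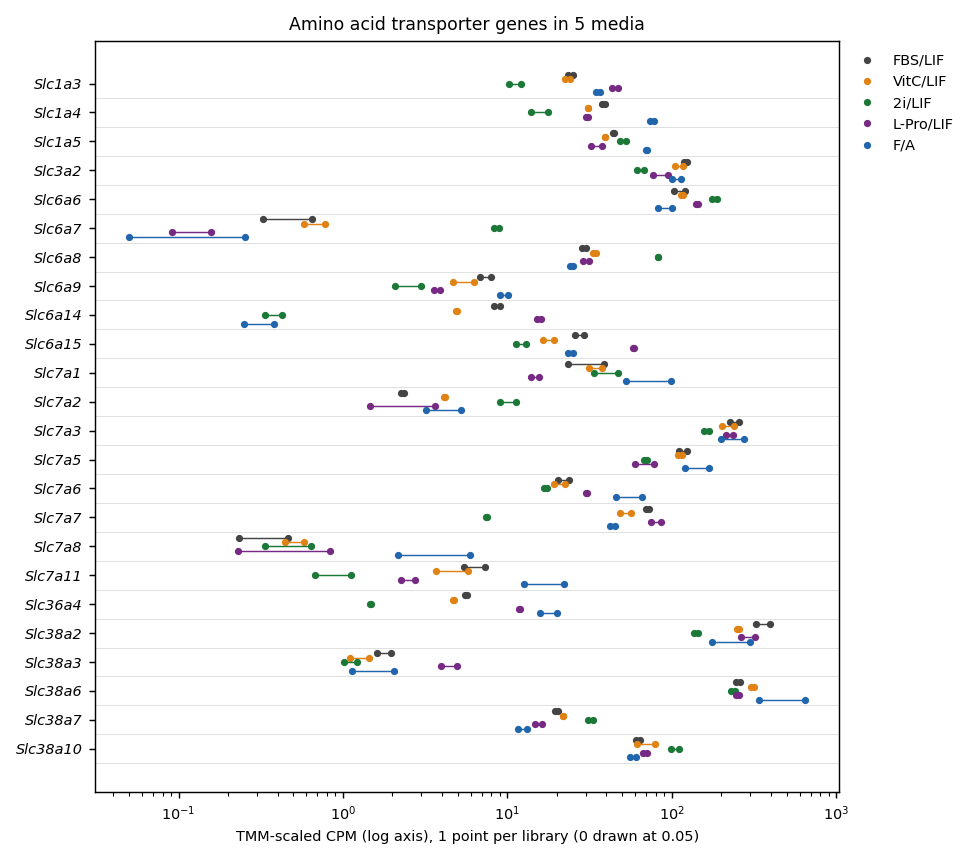
Expression of 24 carriers named by rule, as TMM-scaled CPM on a log axis, 1 point per library and a line joining the 2 libraries of a medium. Slc7a7 and Slc6a14 lie lower in 2i/LIF than in FBS/LIF by more than the gap between libraries, and Slc6a7 exceeds 1 CPM in 2i/LIF alone.

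Carriers were called in 5 of the 6 comparisons made. The largest number was in 2i/LIF over FBS/LIF, where 21 of 37 passed (56.8%), 6 higher and 15 lower, against 30.3% of all genes tested (12.4% higher and 17.9% lower). In F/A over L-Pro/LIF 17 passed (45.9%), 11 higher and 6 lower, against 22.0% of all genes (11.1% higher and 10.9% lower). In F/A over FBS/LIF 17 passed as well (45.9%), 12 higher and 5 lower, close to the share of all genes, 46.4% (24.4% higher and 22.0% lower). L-Pro/LIF over FBS/LIF gave 12 (32.4%), 6 higher and 6 lower, against 24.0% (13.7% higher and 10.3% lower), and L-Pro/LIF over VitC/LIF gave 13 (35.1%), 8 higher and 5 lower, against 29.8% (16.8% higher and 13.0% lower). The last 2 shares lie nearer to their backgrounds than those of the first 2 comparisons. VitC/LIF over FBS/LIF gave none with edgeR, against 0.674% of all genes (0.362% higher and 0.312% lower). There 5 of the 37 had an unadjusted edgeR p under 0.05, against 1800 of all 16033 genes. DESeq2 called 1 carrier there, lower, against 436 of all genes.

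The median log2 fold change of the 37 was -0.36 in 2i/LIF over FBS/LIF, against -0.05 for all genes tested. In the other comparisons the median of the 37 lay between -0.08 and 0.09 and that of all genes between -0.03 and 0.05. In all, 31 carriers passed in at least 1 comparison, in 80 pairs of a gene and a comparison. The comparisons share libraries (FBS/LIF in 4 of them, L-Pro/LIF in 3, VitC/LIF and F/A in 2 each), so their values are not independent. The counts of calls rested on both libraries of a medium. All 5 media share 1 estimate of the spread, so libraries outside a comparison enter it too. The counts for L-Pro/LIF over FBS/LIF and over VitC/LIF rose when either F/A library was left out. For L-Pro/LIF over FBS/LIF fewer carriers were called when any 1 library of either medium was left out. The same held for F/A over FBS/LIF without FBS/LIF replicate 1 and for F/A over L-Pro/LIF without L-Pro/LIF replicate 1 or 2. It also held for L-Pro/LIF over VitC/LIF without replicate 1 of either medium or VitC/LIF replicate 2. The number of all genes called fell in each of these fits as well, so the fall was not particular to carriers.

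**Figure D2:**
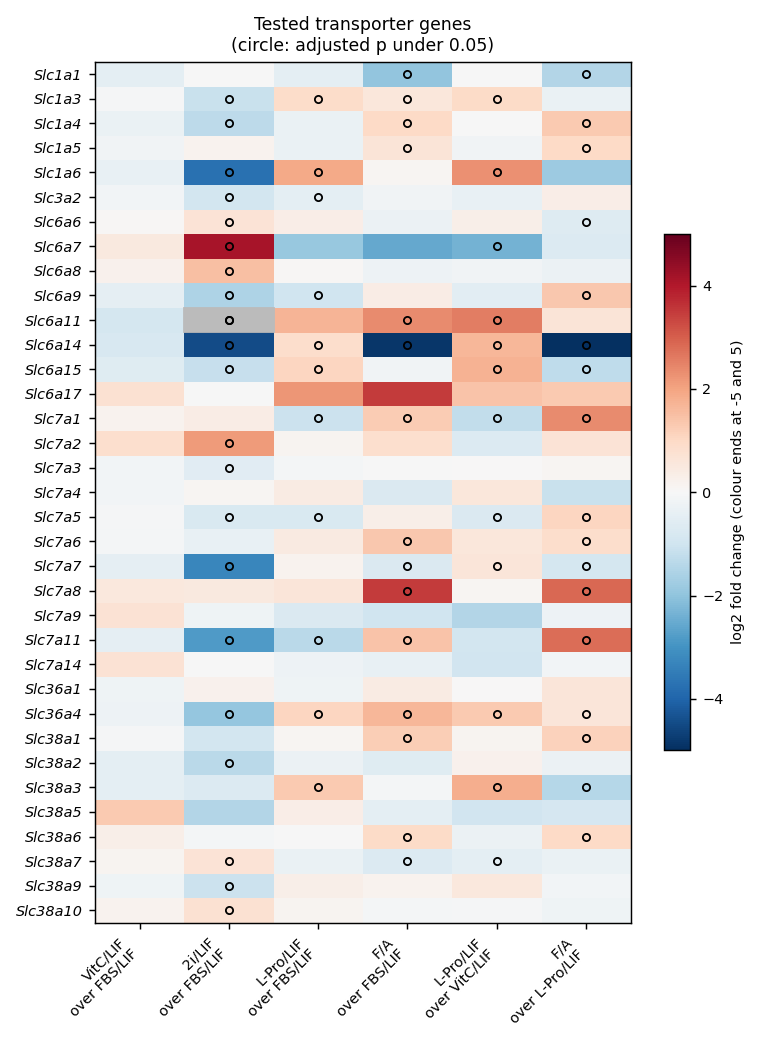
Log2 fold changes of 35 tested carriers (rows) in the 6 comparisons (columns), red for higher and blue for lower in the first-named medium, with circles for adjusted p under 0.05 from edgeR. The 2i/LIF column holds 15 circled falls, 1 of them grey, the VitC/LIF column holds no circle, Slc1a2 is left out because its reads were mostly shared, and grey marks Slc6a11 in 2i/LIF, which had no read there.

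Slc3a2 and 3 of its light chains, Slc7a5, Slc7a7 and Slc7a11, fell in 2i/LIF. Slc3a2, the heavy chain that carries 6 of the Slc7 light chains to the membrane, stood at 118 and 124 CPM in FBS/LIF, 105 and 116 in VitC/LIF, 61.2 and 67.3 in 2i/LIF, 76.6 and 94.8 in L-Pro/LIF, and 114 and 101 in F/A. The 2i/LIF libraries were the lowest of all 10. Slc3a2 fell in 2i/LIF over FBS/LIF (log2 fold change -0.91, SE 0.13, adjusted p = 0.0011) and in L-Pro/LIF over FBS/LIF (log2 fold change -0.50, SE 0.13, adjusted p = 0.025). The second call was lost without either FBS/LIF library, L-Pro/LIF replicate 1 or VitC/LIF replicate 2 (adjusted p = 0.0507 to 0.176). Here and below, "without either library" of a medium means that the call was lost when any 1 of the named libraries was left out.

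Slc7a7, the light chain that exports cationic amino acids in exchange for neutral ones, stood at 72.7 and 70.0 CPM in FBS/LIF, 56.6 and 48.5 in VitC/LIF, 7.47 and 7.40 in 2i/LIF, 74.5 and 86.3 in L-Pro/LIF, and 41.8 and 45.2 in F/A. It fell most in 2i/LIF (log2 fold change -3.26, SE 0.14, adjusted p = 2.5e-06), where both libraries lay far below the other 8. It also fell in F/A over FBS/LIF (log2 fold change -0.71, SE 0.12, adjusted p = 0.0022) and in F/A over L-Pro/LIF (-0.89, adjusted p = 0.0029). In L-Pro/LIF over VitC/LIF it was higher (0.61, adjusted p = 0.0058). This last Slc7a7 call was lost without VitC/LIF replicate 2 or L-Pro/LIF replicate 2 (adjusted p = 0.0652 and 0.0567). The L-Pro/LIF libraries were the highest for this gene and those of FBS/LIF came next.

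Slc7a5, the light chain for leucine and other large neutral amino acids, stood at 111 and 124 CPM in FBS/LIF, 109 and 116 in VitC/LIF, 70.3 and 67.3 in 2i/LIF, 59.8 and 77.6 in L-Pro/LIF, and 168 and 120.5 in F/A. Its lowest libraries were those of 2i/LIF and L-Pro/LIF, and its highest was F/A replicate 1. The gene fell in L-Pro/LIF over FBS/LIF (log2 fold change -0.78, SE 0.18, adjusted p = 0.014), in 2i/LIF over FBS/LIF (log2 fold change -0.77, SE 0.18, adjusted p = 0.011) and in L-Pro/LIF over VitC/LIF (-0.71, adjusted p = 0.017). It was higher in F/A over L-Pro/LIF (1.07, adjusted p = 0.0062). The first of these calls was lost without L-Pro/LIF replicate 1 or FBS/LIF replicate 2 (adjusted p = 0.0858 and 0.0791) and the second without either 2i/LIF library or FBS/LIF replicate 2 (adjusted p = 0.0571 to 0.0727). The third was lost without either VitC/LIF library or L-Pro/LIF replicate 1 (adjusted p = 0.0576 to 0.0967) and the last without L-Pro/LIF replicate 1 (adjusted p = 0.0562).

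Slc7a6, a light chain of the same exchange type as Slc7a7, stood at 20.3 and 23.7 CPM in FBS/LIF, 22.4 and 19.1 in VitC/LIF, 16.8 and 17.4 in 2i/LIF, 30.2 and 30.4 in L-Pro/LIF, and 65.9 and 45.5 in F/A. It rose in F/A over FBS/LIF (log2 fold change 1.34, SE 0.18, adjusted p = 0.00064) and over L-Pro/LIF (0.87, adjusted p = 0.014). This last Slc7a6 call was lost without either L-Pro/LIF library (adjusted p = 0.0875 and 0.0703). So in F/A this light chain was higher than in FBS/LIF while Slc7a7 was lower. Slc7a8, a second light chain for neutral amino acids, lay under 1 CPM in 8 libraries and at 5.96 and 2.15 CPM in F/A. It was called higher in F/A over FBS/LIF (log2 fold change 3.48, SE 0.76, adjusted p = 0.0064) and over L-Pro/LIF (2.86, adjusted p = 0.026). This last Slc7a8 call was lost without L-Pro/LIF replicate 1 or F/A replicate 1 (adjusted p = 0.143 and 0.138). The second heavy chain, Slc3a1, and the light chain Slc7a10 were among the untested genes.

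Per length, the sum of the 6 light chains of Slc3a2 was 77.1 and 80.8 FPKM in FBS/LIF, 68.2 and 65.3 in VitC/LIF, 28.9 and 27.7 in 2i/LIF, 112 and 82.2 in F/A and 69.6 and 76.3 in L-Pro/LIF. Slc7a7 made up 49.4 and 45.4% of this sum in FBS/LIF, 23.4 and 32.1% in F/A, 59.6 and 58.7% in L-Pro/LIF and 13.4 and 13.2% in 2i/LIF. Slc7a5 made up 42.0 and 45.3% of it in FBS/LIF, 52.2 and 48.0% in F/A, 26.5 and 29.6% in L-Pro/LIF and 69.8 and 69.3% in 2i/LIF. The leading light chain was thus Slc7a7 in L-Pro/LIF and Slc7a5 in 2i/LIF and F/A, with both near equal in FBS/LIF. The ratio of Slc3a2 FPKM to the light chain sum was 0.84 and 0.96 in 2i/LIF and 0.47 and 0.50 in L-Pro/LIF, the highest and the lowest medium. These shares and ratios were not tested.

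**Figure D3:**
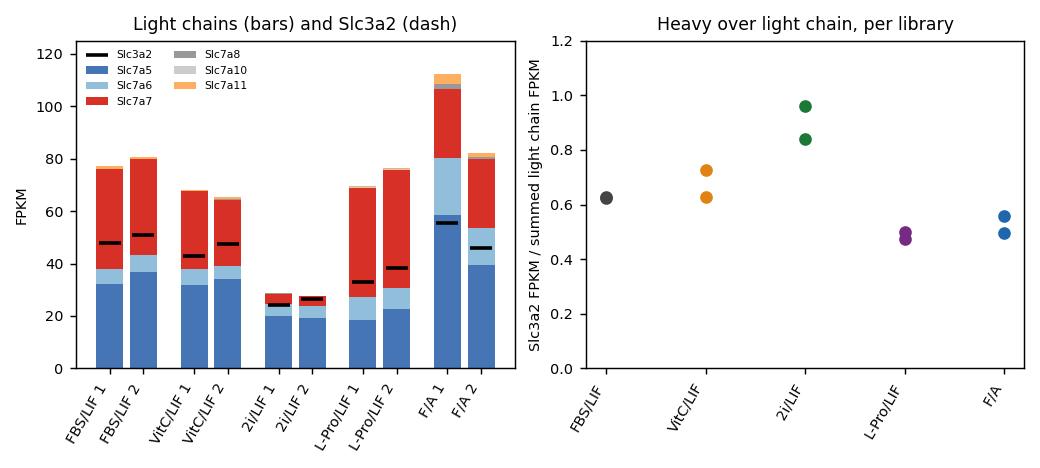
Left, FPKM of the 6 light chains stacked per library (bars) with the FPKM of the heavy chain Slc3a2 (black dashes). Right, the ratio of Slc3a2 to the light chain sum, 1 point per library. The red Slc7a7 segment is short in both 2i/LIF bars, and the 2i/LIF points are the highest on the right.

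Slc7a11, the light chain of the cystine and glutamate exchanger, stood at 7.26 and 5.48 CPM in FBS/LIF, 3.70 and 5.73 in VitC/LIF, 1.11 and 0.673 in 2i/LIF, 2.25 and 2.73 in L-Pro/LIF, and 22.2 and 12.7 in F/A. Both F/A libraries were above every other and both 2i/LIF libraries below every other. It fell in 2i/LIF over FBS/LIF (log2 fold change -2.82, SE 0.40, adjusted p = 0.001) and in L-Pro/LIF over FBS/LIF (log2 fold change -1.35, SE 0.36, adjusted p = 0.027). It rose in F/A over FBS/LIF (log2 fold change 1.44, SE 0.35, adjusted p = 0.011) and over L-Pro/LIF (log2 fold change 2.79, SE 0.37, adjusted p = 0.0024). The L-Pro/LIF call was lost without either FBS/LIF or L-Pro/LIF library (adjusted p = 0.0526 to 0.143) and with limma on log2(FPKM + 0.5) (adjusted p = 0.179). The F/A call over FBS/LIF was lost without F/A replicate 1 or FBS/LIF replicate 2 (adjusted p = 0.0677 and 0.0694). This is the gene whose promoter window holds 2 of the motifs printed above.

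The cationic carriers moved in different directions. Slc7a3 stood at 255 and 227 CPM in FBS/LIF, 239 and 202 in VitC/LIF, 169 and 156 in 2i/LIF, 236 and 212 in L-Pro/LIF, and 200.1 and 275 in F/A, and it was called in 2i/LIF over FBS/LIF alone, lower (log2 fold change -0.57, SE 0.17, adjusted p = 0.034). That small change was lost without either FBS/LIF, 2i/LIF, VitC/LIF or L-Pro/LIF library (adjusted p = 0.0533 to 0.187). Slc7a1, the widely expressed arginine and lysine carrier, stood at 23.2 and 38.6 CPM in FBS/LIF, 37.6 and 31.4 in VitC/LIF, 33.7 and 47.1 in 2i/LIF, 14.0 and 15.5 in L-Pro/LIF, and 98.6 and 52.3 in F/A. The L-Pro/LIF libraries were the lowest of the 10 and those of F/A the highest, though F/A replicate 1, the shallow library, lay well above replicate 2.

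Slc7a1 rose in F/A over L-Pro/LIF (log2 fold change 2.35, SE 0.34, adjusted p = 0.0036) and over FBS/LIF (log2 fold change 1.28, SE 0.33, adjusted p = 0.014). This last Slc7a1 call was lost without FBS/LIF replicate 1 or F/A replicate 1 (adjusted p = 0.0954 and 0.0854). It fell in L-Pro/LIF over FBS/LIF (log2 fold change -1.06, SE 0.33, adjusted p = 0.049). This last Slc7a1 call was lost without either 2i/LIF, VitC/LIF or L-Pro/LIF library or FBS/LIF replicate 2 (adjusted p = 0.0599 to 0.268). It also fell in L-Pro/LIF over VitC/LIF (-1.22, adjusted p = 0.024). This last Slc7a1 call was lost without either VitC/LIF or L-Pro/LIF library (adjusted p = 0.055 to 0.112). Slc7a2, the related carrier known from liver and activated macrophages, stood at 2.36 and 2.25 CPM in FBS/LIF, 4.14 and 4.16 in VitC/LIF, 9.06 and 11.3 in 2i/LIF, 1.47 and 3.64 in L-Pro/LIF, and 5.20 and 3.20 in F/A. It was called in 2i/LIF over FBS/LIF alone, higher (log2 fold change 2.14, SE 0.41, adjusted p = 0.0047).

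Among the Slc38 carriers of glutamine, alanine and other neutral amino acids, 4 of 8 were called in 2i/LIF over FBS/LIF (50%, against 30.3% of all genes), 3 in F/A over FBS/LIF (37.5%, against 46.4%) and 3 in F/A over L-Pro/LIF (37.5%, against 22.0%). Slc38a2, which takes up proline, glutamine and alanine and is known to be induced by amino acid shortage, stood at 323 and 396 CPM in FBS/LIF, 250.3 and 257 in VitC/LIF, 137 and 145 in 2i/LIF, 264 and 321 in L-Pro/LIF, and 298 and 175 in F/A. It fell in 2i/LIF over FBS/LIF (log2 fold change -1.35, SE 0.24, adjusted p = 0.003). In L-Pro/LIF over FBS/LIF its value was -0.30 (SE 0.23, adjusted p = 0.41), so no change passed the test there.

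Slc38a1, its relative for glutamine, stood at 51.3 and 87.4 CPM in FBS/LIF, 66.5 and 68.4 in VitC/LIF, 32.3 and 40.4 in 2i/LIF, 64.0 and 82.4 in L-Pro/LIF, and 214 and 115 in F/A. It rose in F/A over FBS/LIF (log2 fold change 1.24, SE 0.32, adjusted p = 0.014) and over L-Pro/LIF (1.16, adjusted p = 0.036). F/A replicate 1 was the higher of the pair. The first call was lost without FBS/LIF replicate 1 or F/A replicate 1 (adjusted p = 0.095 and 0.0911) and the second without either 2i/LIF, VitC/LIF or L-Pro/LIF library or F/A replicate 1 (adjusted p = 0.0562 to 0.208). Slc38a6 stood at 259.7 and 246 CPM in FBS/LIF, 316 and 304 in VitC/LIF, 229 and 244 in 2i/LIF, 255 and 245 in L-Pro/LIF, and 648 and 337 in F/A, again with F/A replicate 1 far above replicate 2. It rose in F/A over FBS/LIF (0.96, adjusted p = 0.014) and over L-Pro/LIF (0.98, adjusted p = 0.029). The first of these was lost without either FBS/LIF library (adjusted p = 0.0656 and 0.0692) and the second without either 2i/LIF or L-Pro/LIF library (adjusted p = 0.0505 to 0.134).

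Slc38a3, which carries glutamine in liver and kidney, stood at 1.62 and 1.97 CPM in FBS/LIF, 1.44 and 1.10 in VitC/LIF, 1.22 and 1.01 in 2i/LIF, 4.95 and 3.95 in L-Pro/LIF, and 1.14 and 2.05 in F/A. Both L-Pro/LIF libraries lay above the other 8. It rose in L-Pro/LIF over FBS/LIF (log2 fold change 1.31, SE 0.34, adjusted p = 0.024) and over VitC/LIF (log2 fold change 1.81, SE 0.35, adjusted p = 0.0051). It was lower in F/A over L-Pro/LIF (-1.42, adjusted p = 0.025). The first call was lost without either FBS/LIF or L-Pro/LIF library (adjusted p = 0.0658 to 0.154). The second was lost without VitC/LIF replicate 2 (adjusted p = 0.0517) and the third without either L-Pro/LIF library or F/A replicate 1 (adjusted p = 0.0684 to 0.143).

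The lysosomal members Slc38a7 and Slc38a9 went different ways in 2i/LIF. Slc38a7, a glutamine carrier of the lysosome, stood at 20.2 and 19.5 CPM in FBS/LIF, 21.9 and 21.9 in VitC/LIF, 33.0 and 30.7 in 2i/LIF, 14.8 and 16.3 in L-Pro/LIF, and 13.2 and 11.6 in F/A. It rose in 2i/LIF over FBS/LIF (0.68, adjusted p = 0.0031) and fell in F/A over FBS/LIF (log2 fold change -0.69, SE 0.12, adjusted p = 0.0027) and in L-Pro/LIF over VitC/LIF (-0.49, adjusted p = 0.016). The fall in F/A was lost with limma on log2(FPKM + 0.5) (adjusted p = 0.175) and the fall in L-Pro/LIF without either VitC/LIF library or L-Pro/LIF replicate 1 (adjusted p = 0.0758 to 0.109) and with limma on log2(FPKM + 0.5) (adjusted p = 0.0911). Slc38a9, the arginine sensor that signals to mTORC1, fell in 2i/LIF over FBS/LIF (-1.09, adjusted p = 0.0066) from 10.7 and 13.2 to 5.45 and 5.77 CPM. Slc38a10 stood at 64.2 and 60.6 CPM in FBS/LIF, 61.8 and 78.6 in VitC/LIF, 110.1 and 99.0 in 2i/LIF, 66.4 and 70.2 in L-Pro/LIF, and 56.0 and 60.2 in F/A and was called in 2i/LIF over FBS/LIF alone, higher (log2 fold change 0.75, SE 0.13, adjusted p = 0.0033).

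The neutral exchangers of the Slc1 family were highest in F/A. Slc1a4, which carries alanine, serine and cysteine, stood at 39.5 and 37.7 CPM in FBS/LIF, 30.9 and 31.0 in VitC/LIF, 17.6 and 13.9 in 2i/LIF, 31.0 and 30.2 in L-Pro/LIF, and 78.2 and 73.7 in F/A. Its F/A libraries lay above all others and its 2i/LIF libraries below all others. It rose in F/A over L-Pro/LIF (log2 fold change 1.31, SE 0.13, adjusted p = 0.0005) and over FBS/LIF (0.98, adjusted p = 0.0005) and fell in 2i/LIF over FBS/LIF (-1.29, adjusted p = 0.00014). Slc7a11 was called in the same direction in these 3 comparisons, and both genes hold the motif near their start, while the third such gene, Slc7a7, fell in all 3. Slc36a4, whose window was searched and holds no motif, was also called in the directions of Slc1a4 in all 3. Any part of the motif in these values was not tested.

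Slc1a5, the glutamine exchanger, stood at 44.0 and 44.7 CPM in FBS/LIF, 39.2 and 39.4 in VitC/LIF, 48.2 and 52.9 in 2i/LIF, 37.4 and 32.3 in L-Pro/LIF, and 70.6 and 69.2 in F/A. It rose in F/A over FBS/LIF (0.66, adjusted p = 0.0021) and over L-Pro/LIF (log2 fold change 1.00, SE 0.11, adjusted p = 0.00098). It was not called in 2i/LIF. The glial-type glutamate carrier Slc1a3 stood at 23.3 and 25.2 CPM in FBS/LIF, 24.2 and 22.5 in VitC/LIF, 10.2 and 12.1 in 2i/LIF, 47.2 and 43.5 in L-Pro/LIF, and 36.6 and 34.5 in F/A. It rose in L-Pro/LIF over FBS/LIF (log2 fold change 0.90, SE 0.12, adjusted p = 0.0011) and over VitC/LIF (0.96, adjusted p = 0.00058), with both L-Pro/LIF libraries above the other 8, and it fell in 2i/LIF over FBS/LIF (-1.12, adjusted p = 0.00026). Its smaller rise in F/A over FBS/LIF (0.55, adjusted p = 0.0071) was lost without FBS/LIF replicate 1 (adjusted p = 0.0658) and with limma on log2(FPKM + 0.5) (adjusted p = 0.0611).

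The low glutamate carriers were measured less well. Slc1a1, at 1.29 and 1.55 CPM in FBS/LIF and 0.380 and 0.350 in F/A, fell in F/A over FBS/LIF (-1.96, adjusted p = 0.0075), a call lost with limma on log2(FPKM + 0.5) (adjusted p = 0.0919), and over L-Pro/LIF (-1.46, adjusted p = 0.047). This last Slc1a1 call was lost without either FBS/LIF, 2i/LIF, VitC/LIF, L-Pro/LIF or F/A library (adjusted p = 0.0658 to 0.19), with no filter on low counts (adjusted p = 0.0745), with DESeq2 (adjusted p = 0.123) and with limma on log2(FPKM + 0.5) (adjusted p = 0.344). Slc1a6, at 1.65 and 1.66 CPM in L-Pro/LIF and under 1 elsewhere, was called higher in L-Pro/LIF over FBS/LIF (1.89, adjusted p = 0.035). This last Slc1a6 call was lost without either FBS/LIF, VitC/LIF or L-Pro/LIF library (adjusted p = 0.0617 to 0.229) and with DESeq2 (adjusted p = 0.0803). It was also called higher over VitC/LIF (2.27, adjusted p = 0.016). This last Slc1a6 call was lost without either VitC/LIF or L-Pro/LIF library (adjusted p = 0.0723 to 0.12). In 2i/LIF it had 1 read against 19 in FBS/LIF, a ratio of 0.0616 with an exact 95% counting interval of 0.00148 to 0.387, and its call there was lost without FBS/LIF replicate 2 or 2i/LIF replicate 2 (adjusted p = 0.0771 and 0.0747) and with DESeq2 (adjusted p = 0.051). Slc1a2 was called higher in F/A, at 90 estimated reads against 0 in FBS/LIF. Only 11.1% of these reads were unique to it, and its estimated effective length was 57.2 bases in FBS/LIF and 5531 in F/A, so no fold is given. Its call was lost without either FBS/LIF library or F/A replicate 1 (adjusted p = 0.0747 to 0.102) and with limma on log2(FPKM + 0.5) (adjusted p = 0.0697).

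The GABA carrier Slc6a11 lay under 2 CPM in every library. It was called higher in L-Pro/LIF over VitC/LIF (2.55, adjusted p = 0.032). This last Slc6a11 call was lost without either FBS/LIF, VitC/LIF or L-Pro/LIF library (adjusted p = 0.0615 to 0.197), with DESeq2 (adjusted p = 0.0943) and with limma on log2(FPKM + 0.5) (adjusted p = 0.0819). It was called higher in F/A over FBS/LIF (2.35, adjusted p = 0.02). This last Slc6a11 call was lost without either FBS/LIF library or F/A replicate 2 (adjusted p = 0.0864 to 0.148) and with DESeq2 (adjusted p = 0.0686). In 2i/LIF it had 0 reads against 9 in FBS/LIF, at least 2.56-fold lower against a floor of 3 reads over the group, and this call was lost without either FBS/LIF or 2i/LIF library (adjusted p = 0.0669 to 0.107) and with limma on log2(FPKM + 0.5) (adjusted p = 0.537).

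Slc6a14, a carrier of wide range that takes neutral and cationic amino acids, had the largest called log2 fold change of the carriers described here with reads in both media. It stood at 8.97 and 8.25 CPM in FBS/LIF, 4.97 and 4.86 in VitC/LIF, 0.424 and 0.336 in 2i/LIF, 15.2 and 16.0 in L-Pro/LIF, and 0.380 and 0.250 in F/A. It was highest in both L-Pro/LIF libraries and under 1 CPM in 2i/LIF and F/A. It fell in F/A over L-Pro/LIF (log2 fold change -5.71, SE 0.28, adjusted p = 9.8e-06), in F/A over FBS/LIF (log2 fold change -4.85, SE 0.28, adjusted p = 5.8e-06) and in 2i/LIF over FBS/LIF (log2 fold change -4.48, SE 0.25, adjusted p = 8.4e-06). It rose in L-Pro/LIF over VitC/LIF (log2 fold change 1.67, SE 0.20, adjusted p = 0.00042) and over FBS/LIF (0.86, adjusted p = 0.013), and the last call was lost without either FBS/LIF or L-Pro/LIF library (adjusted p = 0.0646 to 0.0932).

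Slc6a15, a carrier of branched-chain amino acids and proline, stood at 25.8 and 29.2 CPM in FBS/LIF, 19.3 and 16.4 in VitC/LIF, 11.3 and 13.1 in 2i/LIF, 59.1 and 58.1 in L-Pro/LIF, and 23.5 and 25.1 in F/A. The L-Pro/LIF libraries were the highest and the 2i/LIF libraries the lowest. It rose in L-Pro/LIF over FBS/LIF (log2 fold change 1.09, SE 0.13, adjusted p = 0.00062) and over VitC/LIF (log2 fold change 1.72, SE 0.13, adjusted p = 4.1e-05). It fell in 2i/LIF over FBS/LIF (-1.17, adjusted p = 0.00029) and in F/A over L-Pro/LIF (log2 fold change -1.27, SE 0.13, adjusted p = 0.00072). Slc36a4, which carries proline and tryptophan, stood at 5.55 and 5.72 CPM in FBS/LIF, 4.69 and 4.74 in VitC/LIF, 1.48 and 1.46 in 2i/LIF, 11.9 and 11.7 in L-Pro/LIF, and 20.0 and 15.7 in F/A. It rose in L-Pro/LIF over FBS/LIF (log2 fold change 1.07, SE 0.18, adjusted p = 0.0035) and over VitC/LIF (1.32, adjusted p = 0.00091) and in F/A over FBS/LIF (log2 fold change 1.66, SE 0.18, adjusted p = 0.00021). It fell in 2i/LIF over FBS/LIF (log2 fold change -1.93, SE 0.20, adjusted p = 0.00016).

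The further rise of Slc36a4 in F/A over L-Pro/LIF (0.59, adjusted p = 0.047) was lost without either FBS/LIF, 2i/LIF, VitC/LIF or L-Pro/LIF library or F/A replicate 1 (adjusted p = 0.0731 to 0.206), with DESeq2's size factors (adjusted p = 0.05, at the threshold), with no filter on low counts (adjusted p = 0.134) and with DESeq2 (adjusted p = 0.0625). Slc6a7, the proline carrier of excitatory neurons, stood at 0.647 and 0.328 CPM in FBS/LIF, 0.773 and 0.578 in VitC/LIF, 8.95 and 8.29 in 2i/LIF, 0.0917 and 0.158 in L-Pro/LIF, and 0.254 and 0 in F/A. It rose in 2i/LIF over FBS/LIF (log2 fold change 4.12, SE 0.60, adjusted p = 0.0011), the only medium with more than 1 CPM, and was called lower in L-Pro/LIF over VitC/LIF (-2.36, adjusted p = 0.043). This last Slc6a7 call was lost without either FBS/LIF, 2i/LIF, VitC/LIF or L-Pro/LIF library (adjusted p = 0.0506 to 0.171) and with limma on log2(FPKM + 0.5) (adjusted p = 0.0764).

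The osmolyte and energy carriers were highest in 2i/LIF. Slc6a8, the creatine carrier, stood at 28.4 and 30.0 CPM in FBS/LIF, 33.3 and 34.5 in VitC/LIF, 82.7 and 82.2 in 2i/LIF, 28.9 and 31.3 in L-Pro/LIF, and 24.1 and 25.1 in F/A. It was called in 2i/LIF over FBS/LIF alone, higher (log2 fold change 1.50, SE 0.10, adjusted p = 2.2e-05). Slc6a6, the taurine carrier, stood at 103 and 121 CPM in FBS/LIF, 118 and 114 in VitC/LIF, 175 and 188 in 2i/LIF, 141 and 145 in L-Pro/LIF, and 101 and 82.5 in F/A. It rose in 2i/LIF over FBS/LIF (0.70, adjusted p = 0.004) and was lower in F/A over L-Pro/LIF (log2 fold change -0.64, SE 0.13, adjusted p = 0.013). This last Slc6a6 call was lost without either L-Pro/LIF library (adjusted p = 0.0514 and 0.062) and with limma on log2(FPKM + 0.5) (adjusted p = 0.0537).

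Slc6a9, the glycine carrier, stood at 6.80 and 7.97 CPM in FBS/LIF, 6.24 and 4.69 in VitC/LIF, 2.97 and 2.07 in 2i/LIF, 3.58 and 3.91 in L-Pro/LIF, and 9.00 and 10.1 in F/A. It fell in 2i/LIF over FBS/LIF (log2 fold change -1.55, SE 0.25, adjusted p = 0.0021) and in L-Pro/LIF over FBS/LIF (-0.98, adjusted p = 0.021) and was higher in F/A over L-Pro/LIF (log2 fold change 1.35, SE 0.25, adjusted p = 0.0093). The call in L-Pro/LIF was lost without either FBS/LIF or L-Pro/LIF library (adjusted p = 0.0607 to 0.122) and with limma on log2(FPKM + 0.5) (adjusted p = 0.0696) and that in F/A without either L-Pro/LIF library (adjusted p = 0.0843 and 0.0506). Between 48.4% and 60.9% of its estimated reads were unique to it in each medium.

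The remaining genes were low or not called. Slc36a1, Slc38a5, Slc6a17, Slc7a4, Slc7a9 and Slc7a14 were tested and called in no comparison. The 19 untested genes were Slc1a7, Slc3a1, Slc6a2, Slc6a3, Slc6a4, Slc6a5, Slc6a12, Slc6a13, Slc6a18, Slc6a19, Slc6a21, Slc7a10, Slc7a12, Slc7a13, Slc7a15, Slc36a2, Slc36a3, Slc38a8 and Slc38a11. They include the carriers of dopamine (Slc6a3), serotonin (Slc6a4) and noradrenaline (Slc6a2) and the kidney and gut carrier Slc6a19. Slc7a12 and Slc7a15 had no estimated read in any of the 10 libraries.

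The 4 single libraries held 33162689 to 39711061 gene counts, deeper than the 5-media libraries, and give values without a replicate or a test. A carrier counted as past 2-fold when its CPM, with 0.5 added, differed at least 2-fold from day 0 and it had at least 10 counts in 1 of the 2 libraries. On L-Pro day 5, 18 of 44 carriers were past 2-fold (40.9%), 9 each way, against 28.9% of all genes. On F/A day 3, 16 of 45 were (35.6%), 10 higher and 6 lower, against 24.4%, and on F/A day 5, 11 of 43 (25.6%), 6 higher and 5 lower, against 31.3%. With 0.1 CPM added in place of 0.5 the F/A day 5 count was 19 (44.2%), 12 higher and 7 lower, against 39.5% of all genes under that setting. These 3 comparisons share the day 0 library, which was kept in vitamin C.

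Of the 12 carriers called in L-Pro/LIF over FBS/LIF, 11 had the same direction on L-Pro day 5 over day 0 and 1, Slc7a11, the opposite. Of the 17 called in F/A over FBS/LIF, 12 had the same direction on F/A day 3 and 14 on F/A day 5. Those opposite on day 3 were Slc1a5, Slc38a6, Slc6a14, Slc7a1 and Slc7a7, and those opposite on day 5 were Slc1a5, Slc7a1 and Slc7a7. These directions rest on 1 library each and have no test. The share of all called genes with the same direction is not given here, so the counts are not shown to be particular to carriers. Some single-library log2 values lay near 0: Slc1a3 on L-Pro day 5 (0.15), Slc7a8 on F/A day 3 (0.07) and Slc7a1 on F/A day 5 (-0.06).

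Slc6a15 stood at 15.6 CPM on day 0, 76.3 on L-Pro day 5, 41.0 on F/A day 3 and 43.5 on F/A day 5. Slc36a4 stood at 3.33 CPM on day 0, 11.6 on L-Pro day 5, 10.7 on F/A day 3 and 14.7 on F/A day 5. Both were above day 0 in all 3 treated libraries. Slc6a14 stood at 0.713 CPM on day 0, 17.8 on L-Pro day 5, 2.77 on F/A day 3 and 0.456 on F/A day 5, highest on L-Pro day 5 and above day 0 on F/A day 3, whereas it fell in F/A over FBS/LIF.

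Slc7a1 stood at 179.9 CPM on day 0, 78.5 on L-Pro day 5, 78.1 on F/A day 3 and 173 on F/A day 5, so L-Pro day 5 and F/A day 3 were alike and below day 0, and F/A day 5 was near day 0, whereas in the 5-media experiment both F/A libraries were above FBS/LIF. Slc7a5 stood at 317 CPM on day 0, 164 on L-Pro day 5, 246 on F/A day 3 and 379 on F/A day 5, lowest on L-Pro day 5 and below day 0 on F/A day 3. The glycine carrier Slc6a9 stood at 6.80 CPM on day 0, 2.82 on L-Pro day 5, 8.72 on F/A day 3 and 9.13 on F/A day 5, lowest on L-Pro day 5. Slc1a4 stood at 38.6 CPM on day 0, 33.2 on L-Pro day 5, 61.2 on F/A day 3 and 108 on F/A day 5. Slc6a7 had 123 counts on day 0, 17 on L-Pro day 5, 6 on F/A day 3 and 0 on F/A day 5, the last at least 40.0-fold lower against a floor of 3 counts.

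Slc7a11 stood at 4.51 CPM on day 0, 21.9 on L-Pro day 5, 17.0 on F/A day 3 and 28.4 on F/A day 5, so it was higher on L-Pro day 5 than on day 0, whereas it fell in L-Pro/LIF over FBS/LIF. On F/A day 3 and day 5 it was above day 0, and it rose in F/A over FBS/LIF. Slc7a7 stood at 62.9 CPM on day 0, 141 on L-Pro day 5, 182 on F/A day 3 and 105 on F/A day 5, above day 0 on F/A day 3 and day 5, whereas it was lower in F/A than in FBS/LIF. Slc1a5 stood at 131 CPM on day 0, 60.1 on L-Pro day 5, 107 on F/A day 3 and 116 on F/A day 5, below day 0 in all 3 treated libraries, whereas it rose in F/A over FBS/LIF. Slc6a8 stood at 75.4 CPM on day 0, 42.4 on L-Pro day 5, 30.6 on F/A day 3 and 36.7 on F/A day 5. Slc7a6 stood at 43.5 CPM on day 0, 108 on L-Pro day 5, 65.3 on F/A day 3 and 117 on F/A day 5, so it was above day 0 in all 3 treated libraries, and it also rose in F/A over FBS/LIF. The bases of the 2 experiments differ in vitamin C, extraction and cell population, and these differences between them were not tested. Fibroblast markers summed to 36.5 CPM on day 0 and 169 on L-Pro day 5, 36.6 on F/A day 3 and 152 on F/A day 5. Much of this sum was Col5a1, at 8.97, 87.7, 14.9 and 136 CPM in the same order. On F/A day 5 Col1a1, Col1a2, Col3a1, Thy1 and Postn were below day 0 and the other fibroblast markers above. On L-Pro day 5 Col1a2, Pdgfrb and Postn were below day 0 and the others above. In the order of libraries given for Col5a1, endoderm markers summed to 4.78, 25.7, 15.0 and 61.3 CPM and pluripotency markers to 4254, 3075, 3869.9 and 2716. Trophectoderm markers summed to 77.4, 23.9, 10.9 and 15.0 CPM. Nes stood at 5.61 CPM on day 0, 785 on L-Pro day 5, 114 on F/A day 3 and 761 on F/A day 5. With it, neural markers summed to 94.5, 848, 175 and 786 CPM in the same order, and brush border markers, mostly Lrp2, to 66.7, 838, 642 and 825. The part of these lists in the single-library values was not tested.

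**Figure D4:**
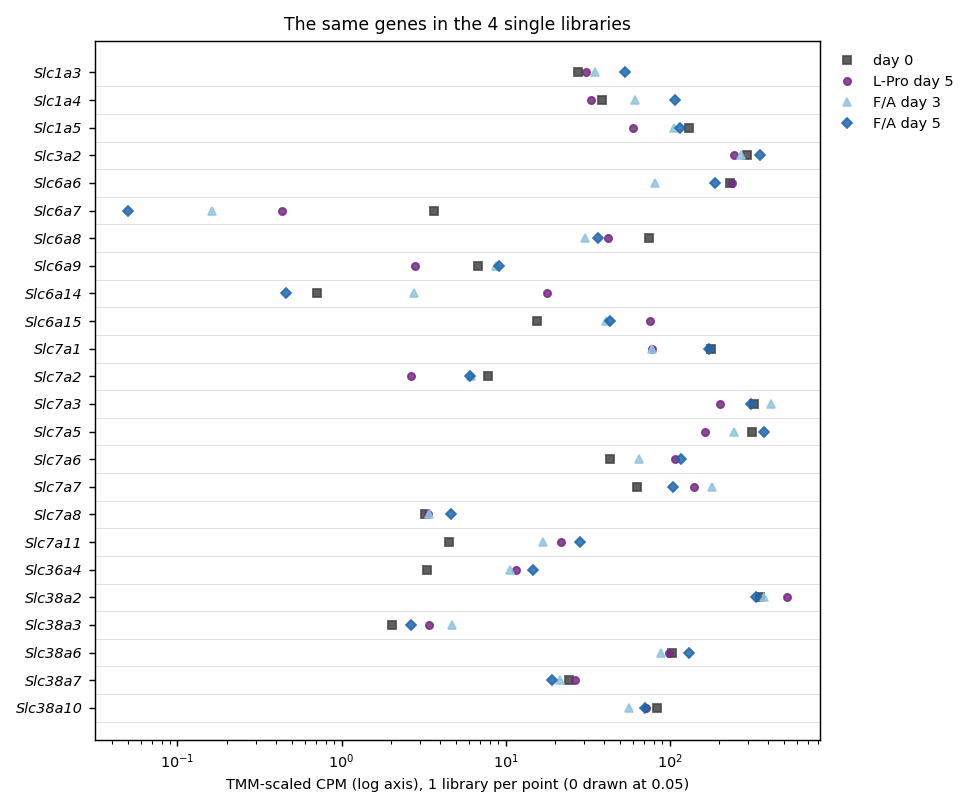
The same 24 carriers in the 4 single libraries, as TMM-scaled CPM on a log axis, 1 library per point. The day 0 square of Slc6a7 lies to the right of the treated libraries, and those of Slc7a11, Slc6a15 and Slc36a4 to the left.

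Carriers of other families were described for comparison. Of 20 tested, 6 were called in L-Pro/LIF over FBS/LIF (30%, against 24.0% of all genes), 4 higher and 2 lower. In L-Pro/LIF over VitC/LIF 10 were called (50%, against 29.8%), 7 higher and 3 lower, and in F/A over FBS/LIF 12 (60%, against 46.4%), 8 higher and 4 lower. In 2i/LIF over FBS/LIF 8 were called (40%, against 30.3%), 2 higher and 6 lower. In F/A over L-Pro/LIF 4 were (20%, against 22.0%), 3 higher and 1 lower. None was called in VitC/LIF over FBS/LIF, where 7 had an unadjusted edgeR p under 0.05, against 1800 of all 16033 genes. The median log2 fold change of this list was 0.20 in L-Pro/LIF over FBS/LIF, -0.28 in 2i/LIF over FBS/LIF and 0.24 in F/A over FBS/LIF, against 0.01, -0.05 and 0.05 for all genes tested. Slc16a10, a facilitated carrier of aromatic amino acids, had medium means of 3.80 CPM in FBS/LIF, 1.15 in 2i/LIF, and 12.0 in L-Pro/LIF, with 25.6 and 24.5 in the F/A libraries, and it rose in L-Pro/LIF (1.66) and F/A (2.72) and fell in 2i/LIF (-1.72). Slc43a1, a facilitated carrier of large neutral amino acids, was called in the same directions in these media (1.10, 1.10 and -2.63). Slc25a12, the mitochondrial aspartate and glutamate carrier, had 55.3 CPM in FBS/LIF, 11.1 in F/A and 13.8 in L-Pro/LIF. It fell in both of the latter against FBS/LIF (-2.32 and -2.01).

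Of 19 tested genes of the amino acid shortage response, the GCN2 and ATF4 branch, 6 were called in L-Pro/LIF over FBS/LIF (31.6%, against 24.0% of all genes), 1 higher (Atf3) and 5 lower. In F/A over L-Pro/LIF 8 were called (42.1%, against 22.0%), 7 higher and 1 lower (Impact). The median log2 fold change of the list was -0.18 in the first of these and 0.22 in the second, against 0.01 and -0.03 for all genes tested. In 2i/LIF over FBS/LIF 2 were higher and 6 lower (42.1%, against 30.3%), and in F/A over FBS/LIF 4 higher and 3 lower (36.8%, against 46.4%). In L-Pro/LIF over VitC/LIF 2 were higher and 6 lower (42.1%, against 29.8%). None was called in VitC/LIF over FBS/LIF, where 3 had an unadjusted edgeR p under 0.05, against 1800 of all 16033 genes. Atf4 itself had medium means of 249 CPM in FBS/LIF, 224 in VitC/LIF, 208 in 2i/LIF, 282 in F/A and 162 in L-Pro/LIF. It fell in L-Pro/LIF over FBS/LIF (log2 fold change -0.62, SE 0.15, adjusted p = 0.016) and was higher in F/A over L-Pro/LIF (0.80, adjusted p = 0.0087). Its targets Chac1 (-2.10), Trib3 (-1.99) and Asns (-0.54) fell in L-Pro/LIF over FBS/LIF. Asns, the asparagine synthetase, had 889 CPM in 2i/LIF against 228 in FBS/LIF, a rise (log2 fold change 1.96, SE 0.15, adjusted p = 3.2e-05).

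Of 37 tested genes of lysosomal amino acid sensing, which couple amino acids to mTORC1, 8 were called in L-Pro/LIF over FBS/LIF, 3 higher and 5 lower (21.6%, against 24.0% of all genes), and 13 in 2i/LIF over FBS/LIF, 2 higher and 11 lower (35.1%, against 30.3%). In F/A over FBS/LIF 5 were higher and 9 lower (37.8%, against 46.4%), and in L-Pro/LIF over VitC/LIF 3 and 4 (18.9%, against 29.8%). In F/A over L-Pro/LIF 2 were higher and 5 lower (18.9%, against 22.0%). None was called in VitC/LIF over FBS/LIF, with 4 at an unadjusted edgeR p under 0.05, against 1800 of all 16033 genes. The list's median log2 fold change was -0.07 in L-Pro/LIF over FBS/LIF and -0.15 in 2i/LIF over FBS/LIF, against 0.01 and -0.05 for all genes tested. Rragb, a Rag GTPase, had 7.42 CPM in 2i/LIF against 40.5 in FBS/LIF and fell there (log2 fold change -2.45, SE 0.20, adjusted p = 4.9e-05), and the leucine sensor Sesn2 was higher in F/A over L-Pro/LIF (1.00, adjusted p = 0.0012). Of 11 tested partners that traffic or modify carriers, 6 were called in L-Pro/LIF over FBS/LIF, 3 each way (54.5%, against 24.0%), and 6 in 2i/LIF over FBS/LIF, 2 higher and 4 lower (54.5%, against 30.3%). In F/A over FBS/LIF 4 were higher and 2 lower (54.5%, against 46.4%), and in L-Pro/LIF over VitC/LIF 4 and 2 (54.5%, against 29.8%). In F/A over L-Pro/LIF 3 were higher and 2 lower (45.5%, against 22.0%). None was called in VitC/LIF over FBS/LIF, with 3 at an unadjusted edgeR p under 0.05, against 1800 of all 16033 genes. The median of the partners was 0.19 in L-Pro/LIF over FBS/LIF and -0.36 in 2i/LIF over FBS/LIF. Emb, a membrane glycoprotein of this list, had 322 CPM in FBS/LIF, 36.7 in 2i/LIF and 614 in L-Pro/LIF. It fell in 2i/LIF (log2 fold change -3.13, SE 0.16, adjusted p = 5.8e-06) and rose in L-Pro/LIF (0.93, adjusted p = 0.0027). Whether it acts on the carriers described here was not tested.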

How the data were processed

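The members and the gene lists were chosen with earlier results of these data known. The submitters' processing notes name CASAVA, TopHat2 2.0.13 and HTSeq 0.6.1p1 with the build mm9 (NCBIM37) for the 4 single libraries, and also Bowtie and DESeq for the 10 libraries of the 5 media. Which tool made which file is not given in the sources used here. Per the file headers, the authors deposited for the 5-media libraries the natural log of an expression value per gene in FPKM, with unique hits, effective lengths and the number of mapped fragments. For the 4 single libraries the authors deposited raw counts per gene.

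Counts of the 5 media were rebuilt as FPKM times effective length times mapped fragments, set to 0 where a gene had no observed read, and rounded. Their sum was 98.7% to 99.5% of the mapped fragments. Genes that passed filterByExpr were fitted with edgeR 4.0.16 (R 4.3.3, TMM scaling, quasi-likelihood test), a term per medium and 5 residual degrees of freedom. Adjusted p-values are Benjamini-Hochberg over 16033 genes. Single libraries have no test. The scripts were tested on simulated data.

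The files use mm9. Symbols came from a GENCODE annotation of GRCm38, and no mm9 coordinate is printed. Values are given in full for carriers called with a mean of at least 4 CPM in 1 medium, up to 5 rises and 5 falls per comparison, and for the 10 highest by FPKM. A carrier that met this rule is not reported here and not drawn, but counts over all carriers include it. From a list, at most the 3 most changed of the called genes and the 2 most expressed of the rest could be named. Slc1a1, Slc1a2, Slc1a6, Slc6a11 and Slc38a9 fall outside this rule and were chosen after their values were seen, as were the list members named beyond it. The alternatives were DESeq2's size factors, no filter, DESeq2 1.42.0, limma 3.58.1 on log2(FPKM + 0.5), unique hits, the replicate number as a block, and leaving out each library.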

Additional observations from a re-analysis of the deposited data

Results flagged for a closer look

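Slc7a11, the cystine and glutamate exchanger, had opposite directions with L-proline in the 2 experiments. It was lower in L-Pro/LIF over FBS/LIF, with a log2 fold change of -1.35, and both L-Pro/LIF libraries (2.25 and 2.73 CPM) lay below both FBS/LIF libraries (7.26 and 5.48 CPM). In the single libraries it was higher on L-Pro day 5 than on day 0, with a log2 fold change of 2.16 after adding 0.5 CPM. The difference between the 2 experiments was not tested, and the second has 1 library per group. The starting points differ in vitamin C, in the RNA extraction and in the labelled cell population.

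In the same way, 3 carriers called in F/A over FBS/LIF were past 2-fold in the opposite direction on F/A day 3 over day 0. The log2 fold changes were -4.85 and 1.43 for Slc6a14, 1.28 and -1.20 for Slc7a1, and -0.71 and 1.52 for Slc7a7. These differences were not tested, and the times of treatment differ as well.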

How the results depend on the processing

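None of the 80 calls reversed under any alternative, and 41 of the 80 held under every one. Of the 80 calls, 79 held with DESeq2's size factors, 78 with no filter, 74 with DESeq2 and 68 with limma on log2(FPKM + 0.5). With unique hits, 79 calls could be compared and all 79 held. The rep number given in the labels was not taken as pairing, since no label says that it marks a shared batch and, of the 10 pairs of media, not every correlation of the same-numbered libraries' deviations was over 0.1. The correlations were all positive, from 0.03 to 0.59 with a median of 0.34. With the number as a replicate block the common biological coefficient of variation went from 0.238 to 0.189 and 77 of the 80 calls held. Slc7a1 in L-Pro/LIF over FBS/LIF (edgeR adjusted p = 0.0632) and, in F/A over L-Pro/LIF, Slc1a1 (adjusted p = 0.0664) and Slc36a4 (adjusted p = 0.0533) did not, and the counts of carriers called in each comparison stayed within 1.5 times. Leaving out 1 library in turn, which leaves its medium with 1 library assumed to vary like the others, gave 4 to 17 calls for L-Pro/LIF over FBS/LIF, 17 to 23 for 2i/LIF over FBS/LIF, 11 to 18 for F/A over FBS/LIF, 5 to 18 for L-Pro/LIF over VitC/LIF, 7 to 18 for F/A over L-Pro/LIF and 0 throughout for VitC/LIF over FBS/LIF. For VitC/LIF over FBS/LIF DESeq2 called 1 carrier, against 436 of all genes. Adding 0.1 CPM in place of 0.5 gave 19 carriers past 2-fold on F/A day 5, 44.2% against 39.5% of all genes under that setting. The causes of these differences were not tested. The 19 untested carriers had at most 17 estimated reads in any library, too few to test at this depth, and F/A replicate 1, with 6937945 fragments, is the shallowest library.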
